A study of Homo sapiens with 4 samples.

Results

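The genes described here carry the machinery that brings proteins into mitochondria and shapes the inner membrane. They are the TIMM, TOMM, CHCHD and MICOS genes, taken by symbol from the array's annotation. A gene counted when at least 1 transcript cluster, the array's unit for a transcript locus, was annotated with that symbol alone, and the cluster with the highest mean level stood for the gene. The rule gave 35 members of 22465 tested genes: 13 TIMM, 10 TOMM, 10 CHCHD and 2 MICOS symbols, of which 3 (CHCHD2P6, CHCHD2P8 and TOMM22P5) are pseudogene symbols and 32 are protein-coding. The rule used no measured difference between the groups.

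The study profiled A549 cells, an established line from a human lung carcinoma, on 4 Affymetrix arrays with 2 arrays in each of 2 groups. All cells had received a pLKO.1 lentivirus. In shCtl it was the control, which the series design describes as a scrambled hairpin and the sample labels as a vector control. In shINSL4 it carried a hairpin against INSL4, a relaxin-family peptide gene, and the titles name 1 hairpin ("A"). The arrays of a group came from independently set up cultures, and nothing used here says whether each had its own transduction, so p-values rest on the spread between cultures only. The deposited values were log2 RMA levels. Their precision is limited by the number of arrays, and a level cannot be set against that of another gene, whose probes differ. INSL4 had a log2 level of 9.03 and 8.92 in shCtl, against 7.26 and 7.22 in shINSL4. It fell by 1.73 on the log2 scale (SE 0.0684, limma adjusted p = 0.000142). Adjusted p-values here and below come from 1 limma fit over all 22465 genes, by the Benjamini-Hochberg method. Across all 22465 genes the median log2 fold change was 0.08, so a member near 0 lay slightly below the middle of the array. Among epithelial markers, KRT8 and KRT18 had log2 levels of 12.16 to 12.75, CDH1 9.69 to 10.21, and KRT19 and EPCAM 6.56 to 7.02. Of the markers of blood cells, PTPRC lay between 3.72 and 3.88 and CD3E between 5.63 and 6.05. The endothelial markers PECAM1, CDH5 and VWF lay between 4.42 and 6.62. Among fibroblast markers, COL1A1 lay between 7.40 and 7.61, and the lowest level of the list was 3.97. DCN was higher in shINSL4 (log2 fold change 0.30) and LUM lower (-0.78), while COL1A1 and PDGFRB did not pass. Since levels of different genes cannot be compared, these values by themselves do not separate cell types. Of the 5 epithelial markers 4 were lower in shINSL4. All 5 proliferation markers, among them MKI67 and TOP2A, were lower too, with a median log2 fold change of -1.30. Their summed log2 level was 47.8 to 48.3 on the shCtl arrays and 41.6 to 41.7 on the shINSL4 arrays, and their part in the results that follow was not tested. In bulk RNA of this kind, fewer cells expressing a gene and less of its RNA in each cell cannot be told apart.

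Nearly all mitochondrial proteins are made in the cytosol and cross the outer membrane through the TOM complex, whose receptors TOMM20, TOMM22 and TOMM70 recognise them and whose pore is TOMM40. From there, precursors with a cleavable presequence pass through the TIM23 complex into the matrix, carriers of the inner membrane are escorted by the small TIM chaperones to the TIM22 complex, and small cysteine-rich proteins are trapped in the intermembrane space by the oxidoreductase CHCHD4 (MIA40). Many of these trapped proteins have the twin cysteine motif that gives the CHCHD genes their name. The MICOS complex, which holds several CHCHD proteins, forms the junctions at which cristae join the rest of the inner membrane.

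Of the 35 members, 8 were lower and 1 was higher in shINSL4, and 26 did not pass a limma adjusted p of 0.05. Over all tested genes, 9.42% were called lower and 6.41% higher, 15.8% in all. The members lower at the threshold thus made up 22.9% of the members and the one higher 2.86%. Among the 32 protein-coding members 7 were lower and 1 higher. The median log2 fold change of the members was -0.01, against 0.08 over all tested genes. At an unadjusted limma p under 0.05, 10 members were lower and 1 higher, against 3045 lower and 4663 higher of all 22465 tested genes. Arrays of the groups did not overlap for 28 members, with both shINSL4 arrays below both shCtl arrays for 15 and above them for 13. Over all tested genes the corresponding shares were 20.8% and 48% (68.9% in either direction), so the separation of the arrays by itself says little. Centring each array on its median, which lowers every log2 fold change by 0.10, gave 9 lower and 0 higher members, and 2746 lower and 457 higher of all tested genes, against 2117 and 1440 as deposited. Changes of at least 1.5-fold among called genes were found for 2 members, both lower, and for 2.99% of all tested genes in that direction.

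**Figure D1:**
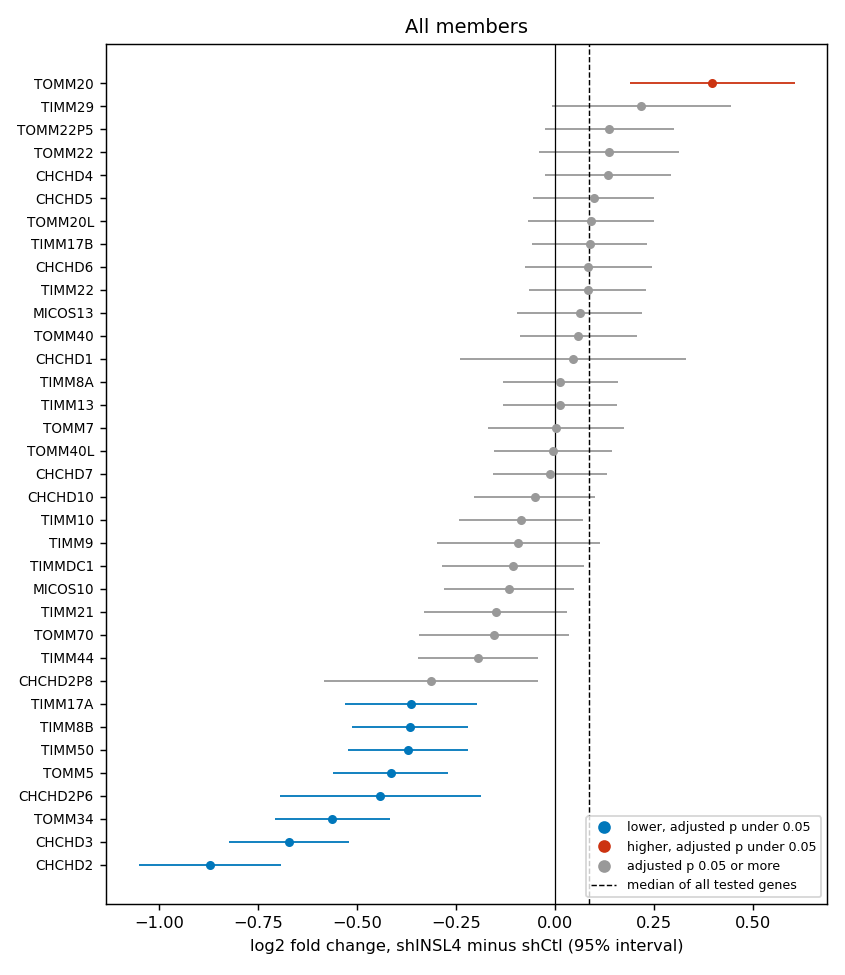
Log2 fold change of all 35 members, shINSL4 minus shCtl, with its 95% interval from limma, sorted by size. Blue points are lower and the red point is higher at an adjusted p under 0.05, grey points did not pass, and the dashed line is the median of all tested genes (0.08). The decreases reach -0.87 (CHCHD2), and the only coloured point to the right is TOMM20 at 0.40.

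The letters upstream of 3 members are given because these genes had the largest decreases (CHCHD2 and CHCHD3) and the only increase (TOMM20) among the members that passed. Each runs from 250 bases before to 50 bases after the annotated start, 5′ to 3′ on the gene's strand, from RefSeq (GRCh38.p14): chr7:56106427-56106726 on the minus strand for CHCHD2, chr7:133082041-133082340 on the minus strand for CHCHD3 and chr1:235128788-235129087 on the minus strand for TOMM20. Capitals mark matches, on either strand, to 6 motifs: the NRF1 core GCATGCGC, the ETS core CCGGAAGT bound by GABPA and other ETS factors, the E-box CACGTG, the CRE TGACGTCA with its looser form TGACGTNA, which includes the full CRE, and the YY1 core AAGATGGC. NRF1, GABPA and YY1 are known regulators of nuclear genes for mitochondrial proteins.
CHCHD2: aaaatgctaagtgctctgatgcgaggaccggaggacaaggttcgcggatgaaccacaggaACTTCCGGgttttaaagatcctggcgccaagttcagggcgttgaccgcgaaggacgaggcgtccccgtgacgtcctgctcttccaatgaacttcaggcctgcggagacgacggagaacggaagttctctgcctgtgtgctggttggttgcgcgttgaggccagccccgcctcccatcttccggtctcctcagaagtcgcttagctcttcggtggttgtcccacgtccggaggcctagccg
CHCHD3: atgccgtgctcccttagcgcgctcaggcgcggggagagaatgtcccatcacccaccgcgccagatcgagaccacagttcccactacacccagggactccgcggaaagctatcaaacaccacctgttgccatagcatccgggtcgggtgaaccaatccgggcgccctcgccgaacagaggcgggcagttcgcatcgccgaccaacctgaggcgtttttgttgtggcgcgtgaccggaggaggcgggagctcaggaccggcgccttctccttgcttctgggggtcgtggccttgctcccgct
TOMM20: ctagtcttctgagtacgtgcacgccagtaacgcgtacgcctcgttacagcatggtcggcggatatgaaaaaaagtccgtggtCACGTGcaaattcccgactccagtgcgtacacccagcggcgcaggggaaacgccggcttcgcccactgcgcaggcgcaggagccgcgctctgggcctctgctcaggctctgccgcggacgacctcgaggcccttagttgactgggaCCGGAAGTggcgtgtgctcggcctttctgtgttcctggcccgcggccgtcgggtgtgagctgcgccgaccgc
CHCHD2 and TOMM20, which moved in opposite directions, both hold the ETS core, on opposite strands, and TOMM20 holds an E-box as well. CHCHD3 holds none of these letters in this window. A promoter was found for 29 members, and CHCHD2P6, CHCHD2P8, CHCHD7, TIMM8B, TOMM22P5 and TOMM5 had no entry. The ETS core stood in 6 of the 29, namely CHCHD2, TIMM10, TIMM29, TIMMDC1, TOMM20 and TOMM70, and in 4.14% of all 35116 promoters of the table (5.98% of the 15247 of tested genes). The NRF1 core stood in CHCHD4, TIMM9 and TOMM7 (3.05% of all promoters, 4.08% of those of tested genes). With shares in the same order, the YY1 core stood in TIMM50 and TOMM40L (2.89% and 3.92%). The E-box stood in TIMM10, TIMM8A and TOMM20 (7.26% and 8.56%). Of the 29, 0 held the CRE (1.85% and 2.58%) or its looser form (3.01% and 3.87%). These matches are descriptions of the letters, and the arrays measure no binding.

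CHCHD2 had the largest decrease among the members. It encodes a twin cysteine protein of the intermembrane space, also found in the nucleus, that acts in respiration and cristae organisation and is linked to inherited Parkinson disease. Its log2 level (cluster TC07001408.hg.1) was 9.69 and 9.81 in shCtl, against 8.83 and 8.93 in shINSL4. The groups lay far apart compared with the spread within them. CHCHD2 fell by 0.87 (log2, SE 0.0749), or 1.83-fold, with a limma adjusted p of 0.000801. Processed copies of CHCHD2 are scattered over the genome, and 2 of them are members. CHCHD2P6 was at 9.89 and 10.11 in shCtl, against 9.68 and 9.44 in shINSL4. It fell by 0.44 (SE 0.106, limma adjusted p = 0.0358). That call was lost without shCtl replicate 2 (adjusted p = 0.132), without shINSL4 replicate 2 (adjusted p = 0.101) and after quantile normalization (adjusted p = 0.0611), within a range of 0.000455 to 0.132 over 13 alternatives. CHCHD2P8 had a log2 fold change of -0.31 (SE 0.113), which did not pass (limma adjusted p = 0.108). It passed without shINSL4 replicate 2 (adjusted p = 0.00415) and with the dimmest genes left out (adjusted p = 0.0363), within a range of 0.00415 to 0.599. In fits without an shINSL4 array, here and below, limma gave every gene the same SE. Their adjusted p therefore does not reflect the spread of the gene itself. Values of such near-identical copies of CHCHD2 are uncertain, since their probes were not compared with those of CHCHD2 here. CHCHD2P6 is one of the 8 lower members, and without the 3 pseudogene symbols 7 of 32 members (21.9%) were lower. CHCHD10, the paralogue of CHCHD2 and a gene of inherited motor neuron and muscle disease, was at 8.84 and 8.82 in shCtl, against 8.82 and 8.74 in shINSL4. Its log2 fold change was -0.05 with a 95% interval of -0.20 to 0.10.

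CHCHD3 (MIC19), a core MICOS subunit that links the inner membrane complex to the sorting machinery of the outer membrane, had the next largest decrease. Its log2 level (cluster TC07001878.hg.1) was 9.41 and 9.47 in shCtl, against 8.74 and 8.79 in shINSL4. Replicates differed by far less than the groups. CHCHD3 fell by 0.67 (log2, SE 0.0634), or 1.59-fold, with a limma adjusted p of 0.00109. The 3 other MICOS subunits among the members did not pass. CHCHD6 (MIC25), the paralogue of CHCHD3, had a log2 fold change of 0.08 (95% interval -0.08 to 0.24). MICOS10, which bends the membrane at cristae junctions, had one of -0.12 (95% interval -0.28 to 0.05), and MICOS13, which bridges its subcomplexes, one of 0.06 (95% interval -0.10 to 0.22). Each of these intervals lies above the interval of CHCHD3, which runs from -0.82 to -0.52.

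The outer membrane machinery moved in both directions. TOMM20, the receptor that binds presequences, was the only member that rose. Its log2 level (cluster TC01003989.hg.1) was 9.31 and 9.53 in shCtl, against 9.84 and 9.79 in shINSL4, so the shCtl arrays differed by more than the shINSL4 arrays did. TOMM20 rose by 0.40 on the log2 scale (SE 0.0869), or 1.32-fold, with a limma adjusted p of 0.0261. Centring each array on its median gave a log2 fold change of 0.30 and ended the call (adjusted p = 0.128, range 0.0040 to 0.128 over 13 alternatives). The other receptor genes did not pass: the log2 fold change was 0.14 (SE 0.0737) for TOMM22, -0.16 (SE 0.0795) for TOMM70 and 0.09 (SE 0.0663) for TOMM20L, a paralogue of TOMM20.

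TOMM5, a small subunit that stabilises the TOM core, fell by 0.42 (SE 0.0611). Its log2 level (cluster TC09002890.hg.1) was 9.73 on both shCtl arrays, against 9.29 and 9.34 on the shINSL4 arrays, with a limma adjusted p of 0.00607. The pore gene TOMM40 had a log2 fold change of 0.06 (95% interval -0.09 to 0.21), its paralogue TOMM40L one of -0.01 and the small subunit gene TOMM7 one of 0.00257, and none of them passed. TOMM34, a cytosolic cochaperone that works with the major cytosolic chaperones on precursors and is not a subunit of the pore, showed the third largest decrease. It was at 8.80 and 8.77 in shCtl, against 8.22 and 8.23 in shINSL4 (cluster TC20000871.hg.1). It fell by 0.56 (SE 0.0604), which is 1.48-fold lower, with a limma adjusted p of 0.00184. TOMM34 thus had the closest replicates of the 3 largest decreases.

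**Figure D2:**
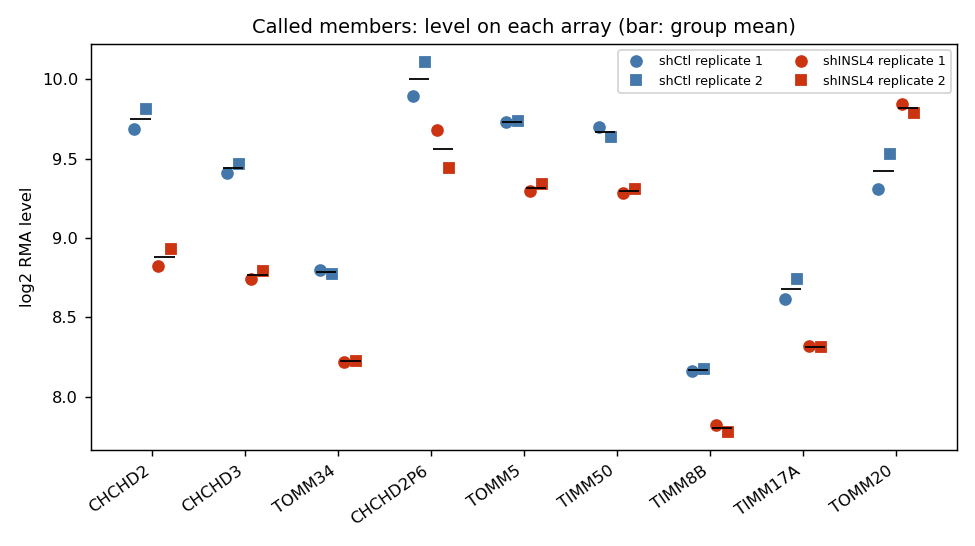
Log2 RMA level of the 9 members that passed, on each of the 4 arrays, with a black bar at each group mean. Blue symbols are shCtl and red symbols shINSL4, circles replicate 1 and squares replicate 2, and levels are to be read within a gene only. All 4 arrays are separated by group in each of the 9 genes, most widely for CHCHD2, and TOMM20 alone is higher in shINSL4.

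Of 5 genes of the presequence translocase, 2 fell. TIMM50, the receptor of the TIM23 complex that takes presequences from the outer membrane, was at 9.70 and 9.63 in shCtl, against 9.28 and 9.31 in shINSL4 (cluster TC19000548.hg.1). It fell by 0.37 (SE 0.0631, limma adjusted p = 0.0105). TIMM17A, a core subunit of the translocase, was at 8.61 and 8.74 in shCtl, against 8.32 and 8.31 in shINSL4 (cluster TC01001667.hg.1). It fell by 0.36 (SE 0.0698, limma adjusted p = 0.0166). Both are decreases of 1.29-fold, and both groups of arrays were separated in each gene. The TIMM50 call was lost without shINSL4 replicate 1, with a log2 fold change of -0.36. The TIMM17A call was lost without shINSL4 replicate 2, also at -0.36. The other 3 genes of this complex did not pass. TIMM44, which ties the import motor to the channel, had a log2 fold change of -0.20 (SE 0.0635) with a limma adjusted p of 0.0849, and TIMM21 had one of -0.15 (SE 0.0756). TIMM17B, the alternative form of TIMM17A, had one of 0.09 (95% interval -0.06 to 0.23). TIMM23, the channel gene, was not a member, since its cluster also carries the near-identical TIMM23B. That shared cluster was at 10.81 and 10.83 in shCtl, against 10.74 and 10.72 in shINSL4, with a log2 fold change of -0.09 (SE 0.0727).

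Among the 5 small TIM chaperones, TIMM8B alone passed. It was at 8.16 and 8.17 in shCtl, against 7.82 and 7.78 in shINSL4 (cluster TC11002292.hg.1). TIMM8B fell by 0.37 (SE 0.0612), with a limma adjusted p of 0.00995. Without shINSL4 replicate 2 the adjusted p was 0.0707, the highest in a range that began at 0.00123. The log2 fold changes of TIMM8A, the gene of a deafness and dystonia syndrome, and of TIMM13, TIMM10 and TIMM9 ran from -0.09 to 0.01. In the TIM22 carrier translocase, TIMM22 had a log2 fold change of 0.08 (SE 0.0622) and TIMM29 one of 0.22 (SE 0.0944), with limma adjusted p-values of 0.357 and 0.156. TIMM29 passed without shCtl replicate 1 (adjusted p = 0.0437), in a range of 0.0437 to 0.593. TIMM10B, the membrane-bound partner of the small TIMs, was not a member because its cluster also lists FXC1, an older symbol of the same gene, and that cluster had a log2 fold change of 0.02 (SE 0.0810). The cluster shared by TOMM6 and PRICKLE4 had one of 0.14 (SE 0.0735), that of TIMM23B and LINC00843 one of -0.09 (SE 0.0735) and that of NBL1 and MICOS10-NBL1 one of 0.12 (SE 0.0726). None of these 5 shared clusters passed, with adjusted p-values of 0.314 to 0.887 in a limma fit over all clusters.

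The remaining members did not pass. CHCHD4, the oxidoreductase that traps cysteine-rich proteins, was at 8.05 and 8.10 in shCtl, against 8.26 and 8.16 in shINSL4, with a log2 fold change of 0.13 (95% interval -0.03 to 0.29). TIMMDC1, an assembly factor of complex I that shares only a domain with the translocases, had one of -0.11 (SE 0.0752). CHCHD1, a protein of the mitochondrial ribosome, had one of 0.04 and the widest SE of all members, 0.119. CHCHD5 and CHCHD7 had log2 fold changes of 0.10 and -0.01, and the pseudogene TOMM22P5 one of 0.14. The 26 members that did not pass had log2 fold changes of -0.31 to 0.22.

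Several members come in pairs of paralogues, and the pairs were set side by side after their values had been seen. In 5 of 6 pairs 1 gene passed and the other did not. Within an array the level of one gene minus that of the other is free of any shift of the whole array, and the change of this difference between groups was -0.82 for CHCHD2 against CHCHD10. It was -0.76 for CHCHD3 against CHCHD6, -0.45 for TIMM17A against TIMM17B and -0.38 for TIMM8B against TIMM8A. It was 0.31 for TOMM20 against TOMM20L and 0.06 for TOMM40 against TOMM40L, the pair in which neither gene passed. The 4 arrays were separated by group in all 6 pairs, in 5 of which 1 gene had itself passed. Among all tested genes, 68.9% were separated singly, so this count says little. The exact two-sided permutation p was 0.333 for each pair. That is the smallest that 2 arrays against 2 can give, so it decides nothing. The change for TOMM40 against TOMM40L was about the size of the SE of either gene's log2 fold change (0.0617 and 0.0620). TOMM20L and TOMM40L were dim, with shCtl means of 5.20 and 6.47, below the level of 6.51 that bounds the dimmest 40% of tested genes. The other pairs therefore show unequal changes in these arrays without a test that could pass a threshold.

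**Figure D3:**
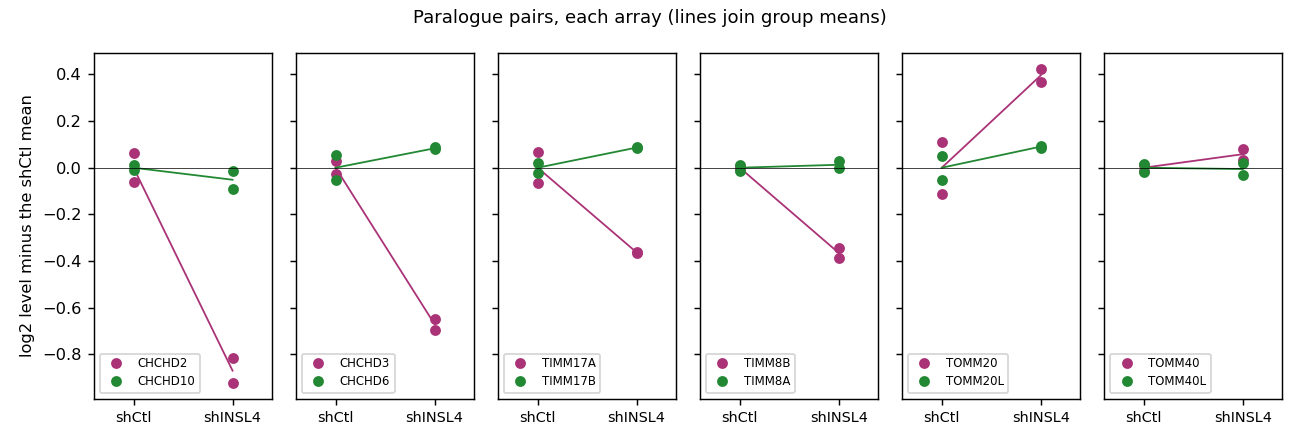
Log2 level of each gene of 6 paralogue pairs, minus its own shCtl mean, on each of the 4 arrays, with lines joining the group means. In the first 4 panels the purple gene drops by 0.36 to 0.87 while the green partner changes by -0.05 to 0.09, in the fifth TOMM20 rises by 0.40, and in the last both stay within 0.06 of 0 on average.

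Other genes of the same pathway, which do not carry these symbols, were read from 5 lists. The lists were written from textbook knowledge, with earlier results of these data known. Of 47 measured genes in these lists, 7 were lower and 3 higher, or 14.9% and 6.38%, against 9.42% and 6.41% of all tested genes. After median centring there were 10 lower and 1 higher, where 12.2% of all tested genes were lower and 2.03% higher. Counts with single arrays left out are given in the closing part. The partners in cristae shaping and outer membrane sorting held the most decreases, with 4 lower and 0 higher of 10. DNAJC11, a protein associated with MICOS and the sorting machinery, was at 8.70 and 8.71 in shCtl, against 7.76 and 7.86 in shINSL4. It fell by 0.90 (SE 0.0665, limma adjusted p = 0.000478). The metaxin gene MTX3 fell by 0.45 (SE 0.0822), OPA1, the dynamin-like GTPase that fuses inner membranes and keeps cristae junctions tight, by 0.42 (SE 0.0821), and the MICOS subunit gene APOO by 0.40 (SE 0.0802). Their limma adjusted p-values ran from 0.0134 to 0.0187. APOO missed the threshold without shCtl replicate 2 (adjusted p = 0.0595) and without shINSL4 replicate 1 (0.0724, range 0.0025 to 0.0724). IMMT (MIC60), the scaffold of MICOS and the binding partner of CHCHD3, was at 10.04 and 10.14 in shCtl, against 10.24 and 10.29 in shINSL4, with a log2 fold change of 0.18 (SE 0.0668) that did not pass (limma adjusted p = 0.120). MICOS transcripts thus did not change as a block: of the CHCHD3, CHCHD6, MICOS10, MICOS13, IMMT, APOO and APOOL genes, CHCHD3 and APOO fell, and the log2 fold change of APOOL was -0.28 (limma adjusted p = 0.0965).

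Of 7 genes listed as partners of the TIM23 complex or its import motor, 0 passed the adjusted threshold in limma. At an unadjusted p under 0.05 there were 3 higher and 0 lower, against 4663 higher and 3045 lower of all 22465 tested genes. PAM16, GRPEL1, ROMO1 and DNAJC19 had log2 fold changes of 0.23, 0.19, 0.16 and 0.13, and the motor chaperone HSPA9 was at -0.04. Of 13 measured processing and quality-control proteases, 2 were lower and 1 higher. The matrix protease gene CLPP fell by 0.55 (SE 0.0684) and YME1L1, which degrades small TIM proteins and cleaves OPA1, by 0.37 (SE 0.0791), while PMPCB, a subunit of the peptidase that removes presequences, rose by 0.31 (SE 0.0760). YME1L1 missed the threshold without shCtl replicate 2 and without shINSL4 replicate 1 (adjusted p = 0.0510 and 0.0509, range 0.00361 to 0.0510). PMPCB missed it in 5 of 13 alternatives, among them median centring (adjusted p = 0.201) and the fits without shCtl replicate 1 (0.0611) or either shINSL4 array (0.0719 and 0.192, range 0.0081 to 0.201). The fourth gene by p, IMMP2L, had a log2 fold change of 0.20 and did not pass. Of 5 insertion and disulfide relay partners, the inner membrane insertase gene OXA1L rose by 0.29 (SE 0.0602), and MTCH2, GFER and MTCH1 had log2 fold changes of -0.16, 0.13 and -0.01. The OXA1L call was lost after median centring (adjusted p = 0.103) and without shINSL4 replicate 1 (0.189) or 2 (0.154), in a range of 0.00374 to 0.189.

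Twin cysteine proteins outside the members, which are substrates of CHCHD4, did not move together. Of 12 measured, 1 was higher and 1 lower. TRIAP1, a p53 target that carries lipid between the mitochondrial membranes, was at 8.38 and 8.47 in shCtl, against 9.24 and 9.23 in shINSL4, and rose by 0.81 (SE 0.0649, limma adjusted p = 0.000631). The complex I gene NDUFS5 fell by 0.34 (SE 0.0610), and COA6 and CMC2 had log2 fold changes of -0.21 and -0.16 that did not pass. NDUFS5 missed the threshold without shINSL4 replicate 1 (adjusted p = 0.0625) or 2 (0.0789, range 0.00145 to 0.0789).

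Related families of mitochondrial genes are given for scale. Of 77 mitochondrial ribosomal protein genes 8 were lower and 2 higher, with a median log2 fold change of 0.03. Of 90 nuclear genes with symbols of the respiratory chain and ATP synthase 9 were lower and 3 higher, with a median of 0.00113. Both sets were taken by symbol, with no removal of assembly factors or pseudogenes. Their shares of lower genes were 10.4% and 10.0%, near the 9.42% of all tested genes, and the 22.9% of the import and cristae genes (21.9% without pseudogene symbols) were not tested against them.

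**Figure D4:**
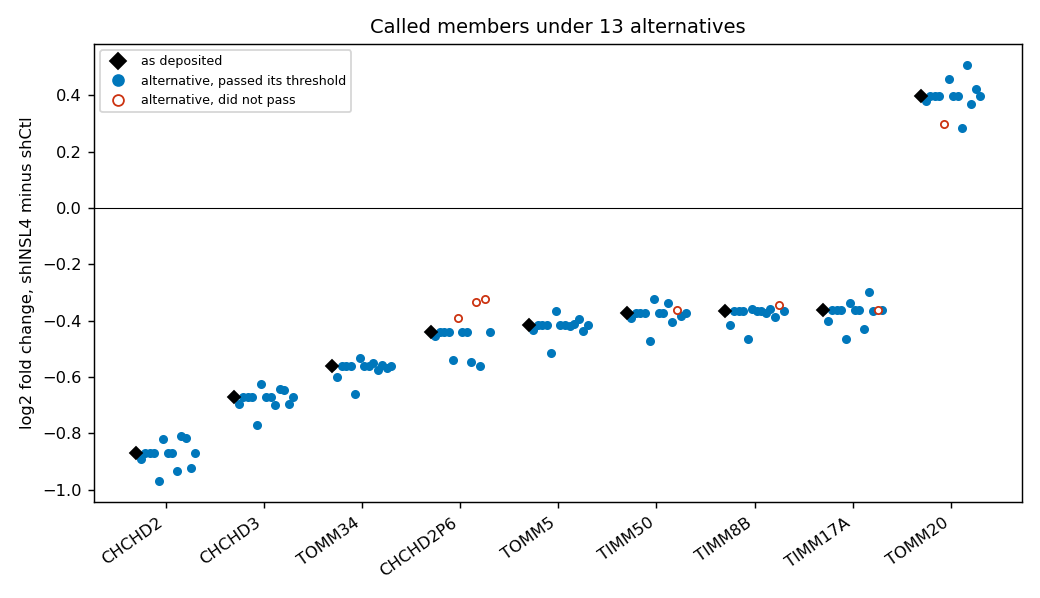
Log2 fold change of the 9 members that passed, shINSL4 minus shCtl, as deposited (black diamond) and under 13 alternative settings (circles, filled blue where the adjusted p passed that setting's threshold and open red where it did not). No point crosses 0. CHCHD2, CHCHD3, TOMM34 and TOMM5 passed throughout, CHCHD2P6 missed 3 times, and TIMM50, TIMM8B, TIMM17A and TOMM20 once each.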

How the data were processed

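RNA from 2 shCtl and 2 shINSL4 cultures was hybridised to Affymetrix arrays after labelling as biotinylated single-stranded cDNA, per the labels' protocols. The authors deposited log2 values (the scale follows from their range). Per the submitters' processing notes, RMA and Affymetrix Expression Console were used. RMA draws arrays to a common distribution, yet the array medians of tested genes still differed (6.91 to 6.98), and values were tested as deposited. Versions and genome build were not stated. Of 67528 transcript clusters, 23781 carried 1 symbol, 1543 several and 42204 none here. The highest-mean cluster stood for each of 22465 genes, and no filter on dim genes was applied. The median SE of a log2 fold change was 0.0693.

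A two-sided limma 3.58.1 test (R 4.3.3, group as the only term, moderated by eBayes) was run on every gene, and p was adjusted over all of them by Benjamini-Hochberg, at a threshold of 0.05. All members could be named. Those that passed are given for every array, and up to 4 genes with the smallest p for each related list, plus IMMT, APOOL, HSPA9 and the shared-symbol clusters, chosen after their values were seen. Members, lists and motifs were chosen with earlier results of these data known. The alternatives are listed with their effects in the closing part.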

Additional observations from a re-analysis of the deposited data

How the results depend on the processing

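Tried in 13 alternatives were a replicate block, a robust intensity trend, leaving out the dimmest 40% of genes, quantile normalization, median centring, cyclic loess, the mean over a gene's clusters, every cluster tested, an adjusted p under 0.1 and leaving out each array. INSL4 passed in all of them. An adjusted p under 0.1 could not end a call. The mean over clusters and every cluster tested left the members' log2 fold changes as deposited. The replicate block, the robust trend and leaving out the dimmest genes also kept these values for the genes that remained. In all these settings no sign could change. Of the 9 called members, 4 (CHCHD2, CHCHD3, TOMM34 and TOMM5) passed in all 13 and none changed sign. With all 4 arrays kept, lower members numbered from 7 after quantile normalization to 10 without the dimmest genes. The share of lower genes over all genes in those fits was 10.4% and 18.4%, and the latter held 32 members. The fits without single arrays, which leave 1 array in a group, are not part of this range. Without shINSL4 replicate 2 the number of lower members fell below it. Lower members numbered 7 with the pseudogenes left out, a choice made after the data were seen. Higher members numbered 0 after median centring, 2 with the replicate number as a block, and 1 to 2 with single arrays left out. The members' median log2 fold change was -0.11 after cyclic loess or median centring, where the median of all genes was -0.00093 and -0.0153, and -0.0693 without the dimmest genes. Leaving out an shINSL4 array leaves 1 array in that group, which is taken to vary like shCtl, and limma then gave every gene the same SE. In the related lists the higher genes numbered 3 as deposited, 6 without the dimmest genes or at an adjusted p under 0.1, 5 after quantile normalization or with the variance trend, 1 after median centring, and 1 to 3 with single arrays left out, where the lower genes numbered 4 to 8. Only members near 0 changed sign, with log2 fold changes after median centring of CHCHD1 -0.0552, CHCHD5 -0.00254, CHCHD6 -0.0165, MICOS13 -0.0387, TIMM13 -0.0874, TIMM17B -0.0134, TIMM22 -0.0185, TIMM8A -0.0872, TOMM20L -0.00920, TOMM40 -0.0418 and TOMM7 -0.10, after cyclic loess of CHCHD1 -0.0509, MICOS13 -0.0200, TIMM13 -0.0235, TIMM8A -0.0729, TOMM20L -0.0217 and TOMM7 -0.0743, and after quantile normalization of CHCHD1 -0.0277, MICOS13 -0.00268, TIMM8A -0.0554, TOMM20L -0.00783 and TOMM7 -0.0490. Over the fits without single arrays the ranges were CHCHD1 -0.12 to 0.21, TOMM40L -0.0301 to 0.0185, TOMM7 -0.0662 to 0.0714, CHCHD7 -0.0290 to 0.00306, TIMM9 -0.21 to 0.0185 and TIMM8A -0.00224 to 0.0275. The causes were not tested. Same-numbered arrays deviated together (r = 0.23 over genes), but the labels do not say that a number marks a shared batch, and 2 pairs cannot settle it. The replicate block gave 9 lower and 2 higher members, adding CHCHD2P8 (adjusted p = 0.0244) and TIMM29 (adjusted p = 0.0440), and 2605 lower and 2996 higher of all genes. TIMM44 passed after cyclic loess (adjusted p = 0.0422), after median centring (0.0399), without the dimmest genes (0.0327) and at the looser threshold.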

Other observations

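The neighbours of the 9 members that passed were read from the order of genes in the RefSeq table (GRCh38.p14), taking the nearest tested gene on each side, a choice made after the data were seen. Of 18 neighbours, 3 were lower, 1 was higher and 14 did not pass the same limma threshold, against 9.42% lower and 6.41% higher over all tested genes. Both neighbours of the pseudogene CHCHD2P6 were lower: AGMAT, which encodes a mitochondrial agmatinase-like protein, had a log2 fold change of -0.99 (SE 0.0722) and PLEKHM2 one of -0.42 (SE 0.0641). The decrease of CHCHD2P6 therefore stands beside decreases of both its parent gene and its neighbours, and their part in it was not tested. The third lower neighbour, SUPT5H beside TIMM50, had a log2 fold change of -0.25 (SE 0.0608), a call lost after quantile normalization (adjusted p = 0.0558), without shCtl replicate 2 (0.0796) and without shINSL4 replicate 1 (0.311) or 2 (0.228), in a range of 0.00893 to 0.311. CHCHD2 itself had neighbours near 0, PHKG1 at 0.11 (SE 0.0660) and NUPR2 at -0.03 (SE 0.0699). SDHD, the complex II subunit gene next to TIMM8B, had a log2 fold change of -0.00089 (SE 0.0657), while RNPEP next to TIMM17A rose by 0.33 (SE 0.0678), a call lost after median centring (adjusted p = 0.117) and without either shINSL4 array (0.0595 and 0.139, range 0.00362 to 0.139).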
